A study of Homo sapiens with 12 samples.

Results

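A set of 9 genes of plasminogen activation and coagulation at the cell surface was followed across OE33 cells, a human esophageal adenocarcinoma line. They are SERPINB2, PLAU, PLAUR, PLAT, THBD, F3, TFPI, PROCR and SERPINE2. These 9 genes, of 57500 in the count matrix, were chosen by name, with earlier results of the same libraries known, among them the large differences of SERPINB2, THBD and F3 between the first 2 groups. All 9 had enough counts to be tested among 15805 genes. The cells formed 4 groups of 3 libraries, described by the study as independent biological replicates. Parental cells were untreated. The rABS cells were survivors of 15 days in which acidified bile salts (200 µM, pH 5.5) were given for 20 minutes a day. The rABS_shCtrl cells (shCtrl below) were rABS cells stably transduced with a non-targeting short hairpin RNA, and the rABS_shAPE1 cells (shAPE1) were rABS cells transduced with a hairpin against APE1, the product of APEX1, which cuts DNA at abasic sites in base excision repair and also acts on the redox state of transcription factors. All groups derive from 1 cell line, no group was mock-exposed, and the labels do not say whether more than 1 APE1 hairpin was used.

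Plasminogen, a circulating zymogen, is cut to the protease plasmin by the urokinase-type activator (uPA, encoded by PLAU) or the tissue-type activator (tPA, PLAT). The uPA receptor (PLAUR) holds uPA on the cell surface, and serpins, among them PAI-2 (SERPINB2) and protease nexin-1 (SERPINE2), inhibit the activators. Coagulation starts when tissue factor (F3) binds factor VII, is checked at that step by tissue factor pathway inhibitor (TFPI), and is checked further down by thrombomodulin (THBD) and the endothelial protein C receptor (PROCR), which together turn thrombin towards activating protein C. Carcinoma cells often carry uPA, its receptor and tissue factor on their surface.

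Library totals lay between 15736087 and 23010377 counts. APEX1 stood at 4.42 to 5.88 CPM (read counts scaled to library size) in shAPE1, against 56.5 to 62.0 in shCtrl, 79.9 to 84.5 in rABS and 52.9 to 56.9 in Parental, so the knockdown was present in each shAPE1 library. The 8 epithelial markers summed to 12046 to 20104 CPM over the libraries. The 7 endothelial markers summed to at most 1.42 CPM and the 5 platelet markers to at most 1.75, and endothelium is the tissue best known for THBD, PROCR and TFPI. The 7 leukocyte and macrophage markers summed to 6.04 to 11.9 CPM. The fibroblast sum, 22.5 to 29.5 CPM in Parental and 3.47 to 4.19 in rABS, was almost all COL1A1, since no untested fibroblast marker passed 0.188 CPM in any library. COL1A1 was thus lower in rABS together with THBD and F3, and its part in their differences was not tested.

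The sequences upstream of 3 of the genes are shown because they hold the letters TGANTCA, the binding motif of AP-1, the FOS and JUN family of transcription factors. RefSeq gave 250 bases upstream of a start site for 7 of the 9 genes, in 9 windows (build GRCh38.p14). THBD and PLAT had no window and were not searched for any motif. The motif reads the same on both strands and occurred in 3 of these windows, those of SERPINB2, PLAUR and F3, while 4.74% of the 15871 windows of tested genes and 6.57% of all 35116 windows held it. Motif letters are in capitals, each sequence runs 5′ to 3′ on the gene's strand, and positions count back from the start site. The SERPINB2 window is chr18:63887455-63887704 (plus strand), the PLAUR stretch is chr19:43670334-43670370 (minus strand) and the F3 window is chr1:94541760-94542009 (minus strand).
SERPINB2: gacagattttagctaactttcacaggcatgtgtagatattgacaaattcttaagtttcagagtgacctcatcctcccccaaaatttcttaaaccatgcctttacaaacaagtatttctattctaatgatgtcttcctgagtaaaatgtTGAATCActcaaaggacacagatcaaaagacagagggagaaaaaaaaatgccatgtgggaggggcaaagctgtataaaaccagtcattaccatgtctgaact
PLAUR: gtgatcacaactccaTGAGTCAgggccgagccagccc
F3: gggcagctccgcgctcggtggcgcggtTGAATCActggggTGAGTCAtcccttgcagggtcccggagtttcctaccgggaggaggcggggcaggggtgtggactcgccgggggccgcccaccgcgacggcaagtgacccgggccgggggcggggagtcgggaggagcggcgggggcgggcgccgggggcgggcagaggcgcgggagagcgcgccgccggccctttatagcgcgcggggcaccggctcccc

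The SERPINB2 match starts at base -102, the PLAUR match at -186, and the F3 window holds 2 matches, at -223 and -210. The EGR motif GCGTGGGCG, found in 1.08% of windows of tested genes, occurred once, in PLAUR at -90. The SP1 motif GGGCGG, found in 62.5% of them, occurred in windows of PLAU, F3, PROCR and SERPINE2, with 4 matches in F3. No member window held the CRE letters TGACGTCA, the TEAD letters GGAATG or the NF-kB consensus, which 2.45%, 9.96% and 6.12% of windows of tested genes hold. All motifs were searched on both strands, and a match describes the letters only. Only full matches to each motif were counted, so sites that differ from it by any base would be missed.

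**Figure D1:**
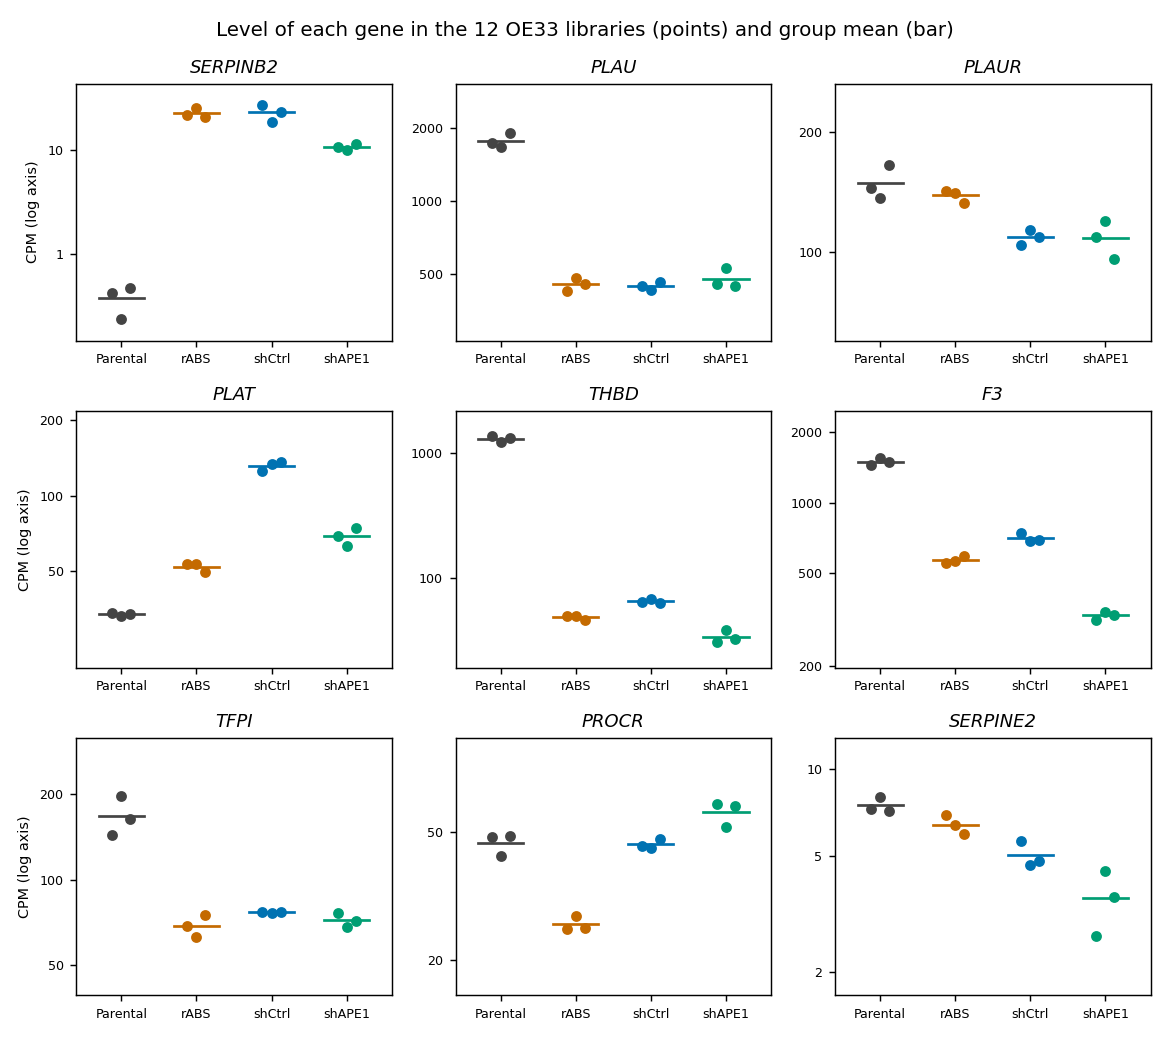
Level of each of the 9 genes in CPM (log axis, its range set per gene) in the 12 libraries, by group. Points are libraries and bars are group means of 3. SERPINB2 is below 1 CPM only in Parental, THBD is above 1000 CPM only in Parental, and PLAT is highest in shCtrl.

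The 2 activator genes differed in opposite directions, with PLAU lower and PLAT higher in rABS than in Parental. PLAU (ENSG00000122861, chr10:73909177-73917497, plus strand, GRCh38) measured 1737, 1675 and 1902 CPM in Parental. The rABS libraries held 426, 483 and 457 CPM, the shCtrl libraries 446, 428 and 463, and the shAPE1 libraries 455, 529.9 and 449. Every Parental library lay above every other library, and the 3 exposed groups overlapped one another. The rABS level was 3.89-fold below Parental (log2 fold change -1.96 ± 0.07, standard error, n = 3 per group). Between shAPE1 and shCtrl the log2 difference was 0.10, with a 95% interval of -0.04 to 0.24 (edgeR quasi-likelihood, adjusted p = 0.297), and between shCtrl and rABS it was -0.03 (-0.17 to 0.11, adjusted p = 0.764).

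PLAT (ENSG00000104368, chr8:42175233-42207724, minus strand) was lowest in Parental, at 34.1, 33.1 and 34.0 CPM. It rose from 53.3, 53.6 and 49.9 CPM in rABS to 126, 134 and 136 in shCtrl, and stood at 69.4, 63.1 and 74.5 in shAPE1. No 2 groups overlapped. The rABS level was 1.55-fold above Parental (log2 0.63 ± 0.08). The shCtrl level exceeded rABS 2.52-fold (log2 1.34 ± 0.08, edgeR adjusted p = 8.49e-15), the largest difference of any of the 9 genes in that comparison. In shAPE1 the gene fell 1.91-fold against shCtrl (log2 -0.93 ± 0.07, edgeR adjusted p = 8.75e-12). Against rABS cells without a vector the direction turned, with shAPE1 higher by log2 0.40 ± 0.08 (edgeR adjusted p = 5.10e-05), so the sign of the PLAT difference in shAPE1 depended on which cells served as the control. Per kilobase of exon, PLAU exceeded PLAT 118-fold ± 6.80 (SD, n = 3) in Parental, 19.6-fold ± 1.43 in rABS, 7.59-fold ± 0.393 in shCtrl and 15.7-fold ± 2.79 in shAPE1. The size of these ratios rests on all annotated exons joined, 2950 bases for PLAU and 6618 for PLAT.

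PLAUR, the uPA receptor (ENSG00000011422, chr19:43646095-43670547, minus strand), varied least, with 1.37-fold between the highest and lowest group means. Parental libraries held 145, 137 and 165 CPM of it, overlapping the rABS libraries at 142, 141 and 133. The shCtrl libraries, at 104, 114 and 109 CPM, and the shAPE1 libraries, at 109, 119 and 96.3, all lay below those of the other 2 groups. In rABS, where its ligand PLAU was lower, the receptor differed from Parental by log2 -0.10 (95% interval -0.25 to 0.05). PLAUR fell 1.27-fold in shCtrl against rABS (log2 -0.35 ± 0.08, edgeR adjusted p = 0.000712). Between shAPE1 and shCtrl its log2 difference was -0.01 (-0.16 to 0.14, edgeR adjusted p = 0.94), with a sign that turned under other scalings, while against rABS without a vector it was -0.36 (edgeR adjusted p = 0.000313). Per kilobase, PLAU exceeded PLAUR 18.0-fold ± 0.542 in Parental and 4.97-fold ± 0.388 in rABS (SD, n = 3).

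SERPINB2, which encodes PAI-2, was close to undetected in Parental. It lies at chr18:63871692-63903890 (ENSG00000197632, plus strand). The Parental libraries held 6, 5 and 8 counts, or 0.415, 0.234 and 0.472 CPM. The rABS libraries held 21.6, 25.1 and 21.0 CPM, the shCtrl libraries 27.3, 18.7 and 23.1, and the shAPE1 libraries 10.6, 9.96 and 11.3. The rABS and shCtrl libraries overlapped, and the shAPE1 libraries lay between them and Parental without overlap. The fitted rABS level was 61.4-fold above Parental (log2 5.94 ± 0.22, 95% interval 5.50 to 6.38), the 13th largest rise of all genes tested. Other tools gave like log2 values with larger standard errors, 5.97 ± 0.36 with DESeq2 and 5.90 ± 0.48 with limma-voom. With so few Parental counts, the edgeR interval may be too narrow. In shAPE1 SERPINB2 fell 2.16-fold against shCtrl (log2 -1.11 ± 0.13, edgeR adjusted p = 2.77e-08), and against rABS without a vector by a like amount (log2 -1.09 ± 0.13). Between shCtrl and rABS the log2 difference was 0.02 (95% interval -0.21 to 0.26, edgeR adjusted p = 0.896).

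SERPINE2, which encodes protease nexin-1, was the least abundant of the 9 per kilobase of exon in each exposed group (chr2:223975112-224039319, minus strand, ENSG00000135919). Parental libraries held 7.27, 8.001 and 7.2 CPM, rABS libraries 6.95, 6.40 and 5.95, shCtrl libraries 5.65, 4.67 and 4.83, and shAPE1 libraries 2.66, 4.44 and 3.63. Each group lay below the one before it without overlap. The rABS level differed from Parental by log2 -0.22 (95% interval -0.55 to 0.10). In shAPE1 the level was 1.41-fold below shCtrl (log2 -0.50 ± 0.18, edgeR adjusted p = 0.0316), on 53 to 110 counts per library. That call was lost without shCtrl replicate 1 (edgeR adjusted p = 0.128), shAPE1 replicate 1 (0.227) or shAPE1 replicate 3 (0.0595), and also in the fit of the 6 libraries, without a filter and with DESeq2 (adjusted p = 0.0579, 0.0515 and 0.0683). Over these 6 alternatives the log2 difference was -0.32 to -0.51, smallest without shAPE1 replicate 1. Against rABS without a vector it was -0.85 ± 0.18 (edgeR adjusted p = 0.000215).

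**Figure D2:**
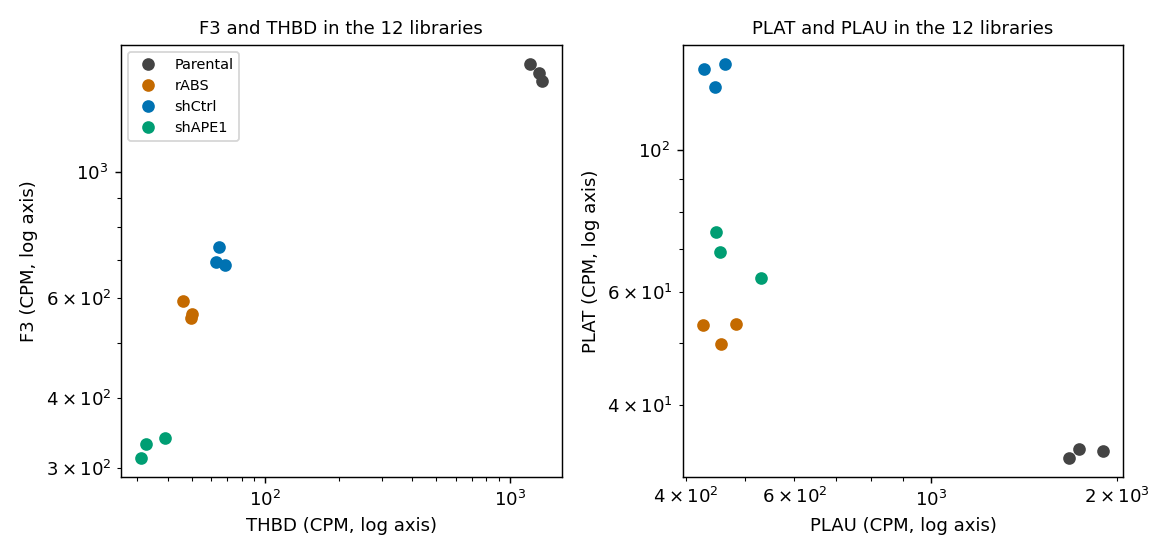
Levels of F3 against THBD (left) and of PLAT against PLAU (right) in the 12 libraries, in CPM on log axes, 1 point per library, coloured by group. The Parental libraries stand apart at high THBD and high F3, and at high PLAU with the lowest PLAT.

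F3, the gene of tissue factor (ENSG00000117525, chr1:94529225-94541800, minus strand), was abundant in every group. Parental libraries held 1448, 1548 and 1492 CPM, rABS libraries 553, 561 and 591, shCtrl libraries 738, 684 and 694, and shAPE1 libraries 313, 339.7 and 331. The groups ranked Parental, shCtrl, rABS and shAPE1, with no overlap between neighbours. The rABS level was 2.63-fold below Parental (log2 -1.40 ± 0.06). F3 rose 1.24-fold in shCtrl against rABS (log2 0.31 ± 0.06, edgeR adjusted p = 0.000202). In shAPE1 it fell 2.15-fold against shCtrl (log2 -1.10 ± 0.06, edgeR adjusted p = 5.16e-15), and it was also below rABS without a vector (log2 -0.79 ± 0.06).

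TFPI, the inhibitor of the tissue factor complex (ENSG00000003436, chr2:187464230-187565760, minus strand), was lower in all exposed groups. The Parental libraries, at 143, 198 and 163 CPM, lay above the rABS libraries at 68.8, 62.8 and 74.8, the shCtrl libraries at 77.1, 76.3 and 77.0 and the shAPE1 libraries at 76.6, 68.4 and 71.8. The rABS level was 2.44-fold below Parental (log2 -1.29 ± 0.09), beside 2.63-fold for F3. Between shAPE1 and shCtrl the log2 difference was -0.09 (95% interval -0.26 to 0.09, edgeR adjusted p = 0.482), and between shCtrl and rABS it was 0.16 (-0.02 to 0.33, edgeR adjusted p = 0.169). Per kilobase, F3 exceeded TFPI 36.8-fold ± 4.66 in Parental, 33.8-fold ± 2.29 in rABS and 37.4-fold ± 1.36 in shCtrl, with the Parental libraries overlapping both other groups. In shAPE1 the ratio was 18.6 ± 1.80 (SD, n = 3), with each library below every library of the other groups. Its size in every group rests on the joined exon lengths, 2875 bases for F3 and 11714 for TFPI.

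THBD, the gene of thrombomodulin (ENSG00000178726, chr20:23045633-23049741, minus strand), had the largest deficit of the 9 in rABS against Parental. The Parental libraries held 1350.1, 1212 and 1311 CPM, the rABS libraries 49.6, 50.3 and 46.2. The shCtrl libraries held 64.6, 68.2 and 63.0 CPM, the shAPE1 libraries 31.0, 39.0 and 32.5. No groups overlapped, and they ranked in the same order as for F3. The rABS level was 26.5-fold below Parental (log2 -4.73 ± 0.08), the 10th largest fall of all genes tested. THBD rose 1.34-fold in shCtrl against rABS (log2 0.42 ± 0.08, edgeR adjusted p = 5.78e-05) and fell 1.91-fold in shAPE1 against shCtrl (log2 -0.93 ± 0.08, edgeR adjusted p = 3.75e-11). Against rABS without a vector the fall in shAPE1 was smaller (log2 -0.51 ± 0.08, edgeR adjusted p = 3.15e-06). Per kilobase, F3 exceeded THBD 1.66-fold ± 0.1498 in Parental and 16.7-fold ± 1.35 in rABS, 15.5-fold ± 1.01 in shCtrl and 13.8-fold ± 1.19 in shAPE1 (SD, n = 3).

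PROCR, the protein C receptor that works beside thrombomodulin (ENSG00000101000, chr20:35172073-35216240, plus strand), was lowest in rABS and highest in shAPE1. Parental libraries held 48.2, 42.1 and 48.8 CPM, rABS libraries 24.9, 27.3 and 25.1, shCtrl libraries 45.1, 44.7 and 47.7, and shAPE1 libraries 61.3, 52.0 and 60.4. Parental and shCtrl overlapped, and the other groups stood apart. The rABS level was 1.80-fold below Parental (log2 -0.84 ± 0.09). PROCR rose 1.78-fold in shCtrl against rABS (log2 0.83 ± 0.09, edgeR adjusted p = 1.11e-08) and was the one gene of the 9 that rose in shAPE1 against shCtrl, 1.26-fold (log2 0.34 ± 0.09, edgeR adjusted p = 0.00226). Against rABS without a vector the rise in shAPE1 was larger (log2 1.17 ± 0.09). THBD per PROCR, per kilobase, was 11.5 ± 0.391 in Parental, 0.780 ± 0.0357 in rABS, 0.589 ± 0.0423 in shCtrl and 0.247 ± 0.0547 in shAPE1 (SD, n = 3).

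On a per-kilobase scale the order of the members differed between Parental and rABS. In Parental PLAU came first (600.4 CPM per kilobase of exon), then F3 (520.4) and THBD (314), and SERPINB2 came last (0.136). In rABS F3 came first (198), then PLAU (154) and PLAUR (31.1). They were followed by PROCR (15.2), THBD (11.8), SERPINB2 (8.22), PLAT (7.89), TFPI (5.88) and SERPINE2 (0.723). This order depends on the joined exon lengths. In CPM without a length, TFPI (68.8), PLAT (52.2) and THBD (48.7) stood above PROCR (25.8) and SERPINB2 (22.6) in rABS.

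**Figure D3:**
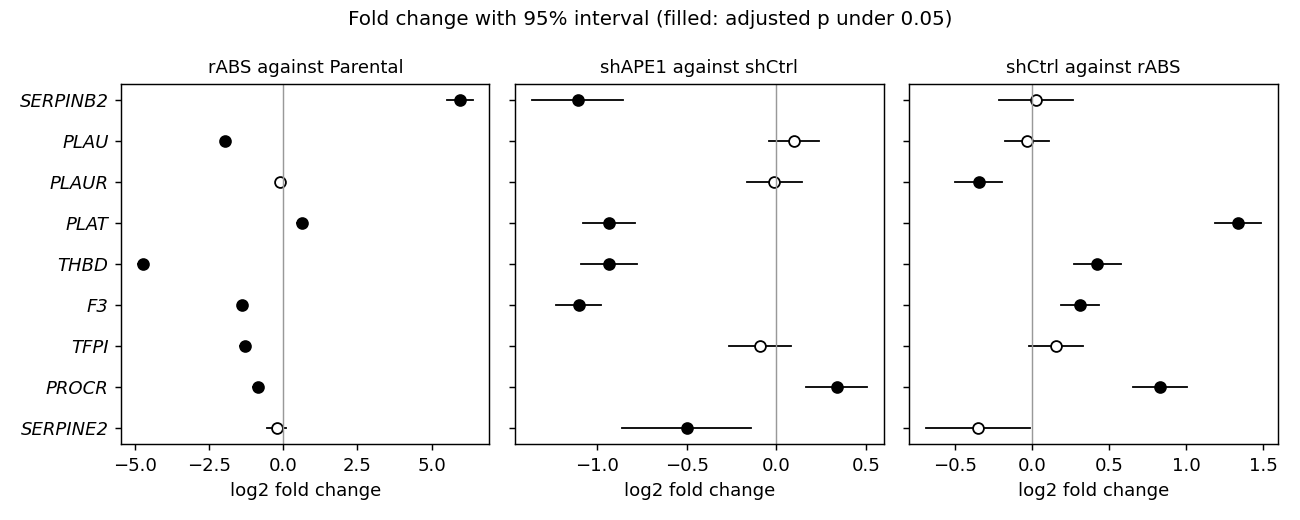
Log2 fold change of the 9 genes with its 95% interval in the 3 comparisons, each panel with its own axis range. Filled points passed an adjusted p of 0.05, which for rABS against Parental is shown as a description. SERPINB2 and THBD lie at 5.94 and -4.73 in the first panel, and PROCR is the one filled point above 0 in the second.

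In rABS against Parental 2 of the 9 genes were called higher (SERPINB2, PLAT), 5 lower (PLAU, THBD, F3, TFPI, PROCR) and 2 not called (PLAUR, SERPINE2), where 59.8% of all genes tested were called, and nothing is read from that count because the members were chosen with it known. The libraries of 8 of the 9 did not overlap, against 63.1% of all genes. The median log2 fold change was -0.84, against -0.01 over all genes. In shAPE1 against shCtrl 1 member was called higher (PROCR), 5 lower (SERPINB2, PLAT, THBD, F3, SERPINE2) and 3 not called (PLAU, PLAUR, TFPI), against 36.6% of all genes called, and 6 did not overlap, against 46.8%. The median was -0.50, against -0.02. In shCtrl against rABS 4 were called higher (PLAT, THBD, F3, PROCR), 1 lower (PLAUR) and 4 not called, against 36.5% of all genes, and 7 did not overlap, against 48.4%, with a median of 0.16 against 0.02.

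The comparison of shCtrl with rABS shares its rABS libraries with the comparison to Parental and its shCtrl libraries with the comparison to shAPE1, so their values are given side by side only. The 9 genes were chosen with earlier results known, so the adjusted p-values, which run over all genes tested, are no independent evidence. The exposure, the selection of survivors and any extra culture time cannot be told apart between rABS and Parental, as no group was mock-exposed. Transduction and any further passage differ between shCtrl and rABS and cannot be told apart. In bulk RNA, fewer cells with a transcript and less transcript per cell cannot be told apart either.

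**Figure D4:**
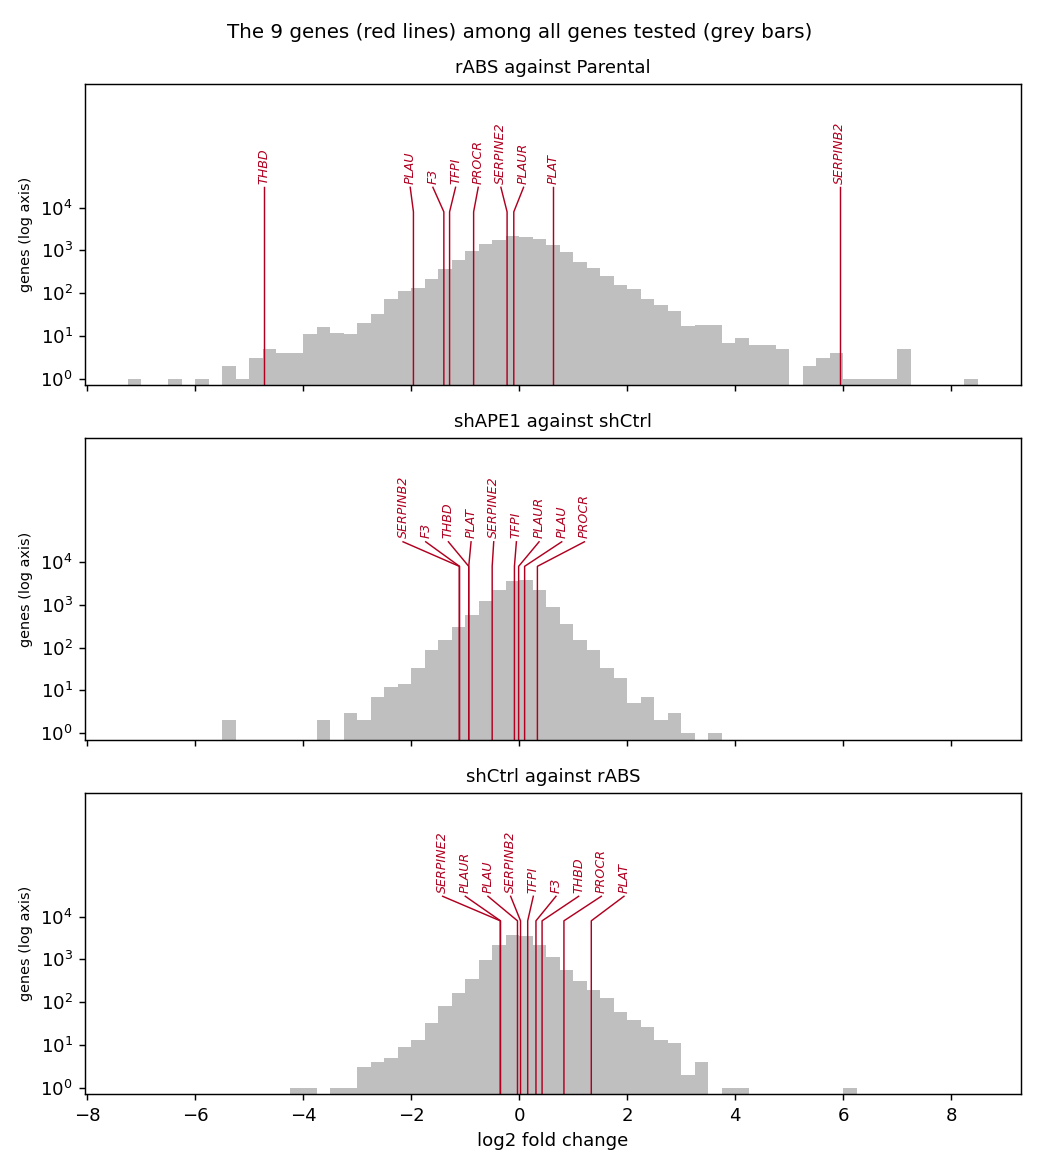
Distribution of log2 fold changes over the 15805 genes tested (grey bars, bins of equal width, log count axis) with the 9 genes marked by red lines, in each of the 3 comparisons. SERPINB2 and THBD lie in the tails of the first panel, and in the other panels the 9 genes lie between -1.11 and 1.34.

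Other genes of plasminogen activation were sparse on the substrate side. PLG itself had 2 counts in all 12 libraries, and 5 of the 16 listed genes were too low to test, none above 0.285 CPM. As background for this and the following lists, 29.9% of all genes tested were higher and 29.9% lower in rABS against Parental, 17.8% and 18.8% in shAPE1 against shCtrl, and 17.9% and 18.6% in shCtrl against rABS. Of the 11 tested, 4 were higher, 4 lower and 3 not called in rABS against Parental (median log2 -0.15). In shAPE1 against shCtrl 2 rose, 4 fell and 5 were not called (median -0.11), and in shCtrl against rABS 2 rose, 1 fell and 8 were not called (median 0.03). ANXA2 and S100A10, whose products form a surface complex that binds tPA and plasminogen, were 1.42-fold and 1.24-fold higher in rABS than in Parental, and fell 1.53-fold and 1.66-fold in shAPE1 (edgeR adjusted p = 1.44e-07 and 7.69e-09). ENO1, whose product can bind plasminogen at the surface, was 1.80-fold higher in rABS and fell 1.45-fold in shCtrl against rABS (edgeR adjusted p = 1.02e-07). PLGRKT, a plasminogen receptor, rose 1.77-fold in shCtrl against rABS and fell 1.99-fold in shAPE1 (edgeR adjusted p = 0.000260 and 2.44e-05). LRP1, which clears activator and inhibitor complexes, was 2.24-fold lower in rABS and rose 1.26-fold in shAPE1 (edgeR adjusted p = 0.00786). ST14, the gene of matriptase, which can activate pro-uPA, rose 1.40-fold in shAPE1 (edgeR adjusted p = 1.22e-06).

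Of 27 further coagulation genes 11 were tested, and the 16 others, among them F2, F7, F9 and F10, reached at most 0.702 CPM. In rABS against Parental 4 were higher, 4 lower and 3 not called (median log2 -0.06). In shAPE1 against shCtrl 3 rose, 3 fell and 5 were not called (median 0.10), and in shCtrl against rABS 2 rose, 4 fell and 5 were not called (median -0.25). ANXA5, which covers exposed phosphatidylserine, was 1.46-fold higher in rABS and fell 1.65-fold in shAPE1 (edgeR adjusted p = 1.24e-08). ANO6, the scramblase that exposes that lipid, was 1.28-fold lower in rABS and rose 1.23-fold in shAPE1 (edgeR adjusted p = 0.000917). SERPIND1, the gene of heparin cofactor II, was 7.03-fold higher in rABS, at 3.07 to 3.43 CPM, and fell 4.65-fold in shCtrl (edgeR adjusted p = 9.28e-06).

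Both tested receptors of the 4 that coagulation proteases cleave were higher in rABS. F2R, the thrombin receptor PAR1, was 1.92-fold above Parental (log2 0.94 ± 0.08), and F2RL1, PAR2, was 1.48-fold above (log2 0.56 ± 0.07). In shAPE1 F2R fell 1.16-fold (edgeR adjusted p = 0.0394) and F2RL1 differed by log2 0.07 (edgeR adjusted p = 0.468). The median log2 fold change of the pair was 0.75 in rABS against Parental, -0.07 in shAPE1 against shCtrl and 0.00 in shCtrl against rABS, where neither was called.

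Of 12 clade B serpins related to SERPINB2, 5 were tested, and in rABS against Parental 1 was higher (SERPINB5, 1.59-fold), 2 lower (SERPINB1, 1.46-fold, and SERPINB9, 1.25-fold) and 2 not called, with a median log2 of 0.03. In shAPE1 SERPINB1 fell 1.30-fold (edgeR adjusted p = 4.47e-05) and 4 were not called (median -0.03). In shCtrl against rABS 2 rose, 2 fell and 1 was not called (median -0.11).

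Matrix metalloproteinases, some of which plasmin can activate, and their TIMP inhibitors were split. Of 18 listed 11 were tested, with 2 higher, 6 lower and 3 not called in rABS (median log2 -0.54), 5 higher, 2 lower and 4 not called in shAPE1 (median -0.10), and 4 higher, 3 lower and 4 not called in shCtrl against rABS (median -0.14). MMP7 was 5.46-fold higher in rABS than in Parental (log2 2.45 ± 0.07). MMP1 was lower at each step, 2.10-fold in rABS against Parental, 3.597-fold in shCtrl against rABS and 3.21-fold in shAPE1 against shCtrl (edgeR adjusted p = 1.39e-13 and 5.84e-10 for the last 2). TIMP2 was 1.46-fold lower in rABS and rose 1.503-fold in shAPE1 (edgeR adjusted p = 3.56e-08).

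The 20 listed transcription factors known to act on promoters of these genes were all tested. In rABS against Parental 2 were higher, 13 lower and 5 not called (median log2 -0.44), where 29.9% of all genes tested were lower. In shCtrl against rABS 1 rose, 11 fell and 8 were not called (median -0.20), where 17.9% of all genes rose and 18.6% fell. In this comparison FOS fell from 43.1 to 47.5 CPM in rABS to 5.76 to 6.87 in shCtrl, 6.88-fold (edgeR adjusted p = 6.45e-19). FOSB fell 8.52-fold, JUN 3.86-fold and EGR1 2.81-fold (edgeR adjusted p = 2.85e-17, 7.02e-16 and 1.56e-15). JUNB and JUND fell less, 1.51-fold and 1.55-fold. FOSL1 and FOSL2 were not called (edgeR adjusted p = 0.97 and 0.271). FOSL1 was the most abundant FOS or JUN gene listed, with means of 468 CPM in rABS and 469 in shCtrl. No FOS or JUN gene listed was called higher in this comparison. Of the genes with the AP-1 letters shown above, in that comparison SERPINB2 was not called, PLAUR fell 1.27-fold and F3 rose 1.24-fold. Any part of AP-1 in these values was not tested.

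In shAPE1 against shCtrl 7 of the factors rose, 7 fell and 6 were not called (median log2 -0.05). FOSL1, an AP-1 subunit, fell 1.58-fold, FOS 1.57-fold and NFKB1 1.83-fold (edgeR adjusted p = 1.23e-09, 0.000176 and 4.57e-11). JUN rose 2.00-fold, JUND 2.17-fold and FOSL2 1.42-fold (edgeR adjusted p = 1.36e-09, 1.76e-09 and 1.26e-06). The NF-kB genes RELA and RELB rose 1.25-fold and 1.22-fold (edgeR adjusted p = 0.000327 and 0.0211). JUNB, FOSB and NFKB2 were not called. Here SERPINB2 and F3 fell and PLAUR was not called. SERPINE2, whose windows held no AP-1 letters, also fell, as did PLAT and THBD, which had no window. AP-1 and NF-kB proteins are known partners of the redox function of APE1. RNA levels do not measure that function, and its part in these values was not tested.

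A site in the F3 transcript is shown because an earlier search of these data of 3′ untranslated regions had picked overlapping strings from the shAPE1 against shCtrl fold changes. The first is TGCATTC, another is GCATTCT, and the last is CTGCATT. Of the 9 genes F3 alone held one, GCATTCT, starting at base 153 of a 1235-base 3′ untranslated region (GENCODE 29). The 25 bases around it lie at chr1:94530292-94530316 (minus strand, GRCh38), with the match in capitals.
F3 site: ttaccattaGCATTCTggttttgac

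One of those strings was present in 28.9% of 12480 tested genes with such a region, in 48.6% of those that fell in shAPE1, in 19.7% of those that rose and in 24.7% of those not called. SERPINB2, PLAT, THBD and SERPINE2 were also lower in shAPE1 and held none. Because the strings were picked on the same comparison, these shares are a description.

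Among 10511 genes with a mean of at least 5 CPM, the nearest in pattern to each member over the 12 libraries were named by the root mean square difference of centred log2 CPM. The F3 pattern was closest to LMO4 (0.0957), MAPK6 (0.120) and CPD (0.130). PROCR was nearest to ANXA4 (0.102), IGF2BP2 (0.115) and PHLPP1 (0.128), which like it were lowest in rABS and highest in shAPE1. For THBD the nearest were IL1A (0.502), GDF15 (0.506) and ADM2 (0.624), at a greater distance, and for SERPINB2 they were EDAR (0.533), VCAN (0.691) and UGT2B7 (0.747). GDF15 had means of 2444 CPM in Parental and 147 in rABS, and VCAN had 8.60 and 225. PLAU was nearest to GADD45A, GK and SARS1 (0.157 to 0.170), PLAT to ACAT2 and STEAP4 among others (0.240 and 0.2497), TFPI to TRAPPC6B, NAMPT and ARHGAP24 (0.0983 to 0.115), PLAUR to MLPH, EMD and DBN1 (0.0655 to 0.0827), and SERPINE2 to COPZ1, IGF2R and HEXA (0.1501 to 0.155).

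PROCR and PLAU each share their locus with an expressed gene on the other strand. Whether counting used the strand is not given in the sources used here, and without strand the reads of such a pair cannot be told apart. MMP24OS, which overlaps PROCR, had means of 103 CPM in Parental, 90.1 in rABS, 76.1 in shCtrl and 120 in shAPE1. Like PROCR it was lower in rABS than in Parental, higher in shAPE1 than in shCtrl and highest in shAPE1, so the PROCR rise in shAPE1 ran the same way as the level of the overlapping gene. Between rABS and shCtrl the 2 genes differed in opposite directions. The part of shared reads in the PROCR values was not tested. C10orf55, opposite PLAU, had 4.19 to 11.4 CPM, far below PLAU. Other overlapping genes reached at most 1.91 CPM.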

How the data were processed

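Polyadenylated RNA of 12 OE33 libraries, 3 per group by the labels' titles, was sequenced. The deposited values are whole-number read counts per Ensembl gene, with no normalization. Per the submitters' processing notes, the tools were Trimmomatic 0.36, STAR 2.5.2b and featureCounts of Subread 1.5.2 with GRCh38. For the annotation release, the strand setting and multiply mapped reads, settings were not given in the sources used here. Of 57500 IDs, 56410 matched a symbol and 56898 a GENCODE 29 position.

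Genes were filtered with filterByExpr (minimum count 10, total 15), libraries were scaled with TMM, and all 12 were fitted together with edgeR's quasi-likelihood test (edgeR 4.0.16, limma 3.58.1, R 4.3.3). A gene was called at a Benjamini-Hochberg adjusted p under 0.05 over 15805 genes. CPM uses scaled library sizes, and levels between genes are per kilobase of all annotated exons of a gene, joined. Joined exons can be longer than the transcript present. Levels per kilobase can then be too low, and ratios between genes are approximate. Marker sums were made in the same CPM. For rABS against Parental members carry no p-value.

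The members and gene lists were chosen with earlier results of these data known. Besides the members, the text names from each list up to 4 genes by smallest adjusted p per comparison and genes at 50 CPM or more, some of which are left out for length, and the 3 genes nearest in pattern to each member. Genes withheld for evaluation are not reported here. Genes named only as untested, PLG and 4 clotting factors, were chosen after their values were seen. Same-group libraries differed by more than sampling noise (chi-square per degree of freedom 3.05 to 12.9). Counts were also simulated from the fit's own means and spreads, with 50, 100 and 50 genes changed 1.5-, 2- and 4-fold in shAPE1. Of these changes 78%, 93% and 100% were recovered against shCtrl (15407 genes tested), with 7 of 189 calls false. All other genes were kept equal there, while the data had 5784 calls, so these shares may not hold for the data. Alternatives were RLE and upper-quartile scaling, other filters, DESeq2 1.42.0, limma-voom, 6-library fits, a replicate block, leaving out each library and rABS as the control of shAPE1. Promoters came from RefSeq (GRCh38.p14).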

Additional observations from a re-analysis of the deposited data

How the results depend on the processing

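The counts of members called stayed at 7 of 9 for rABS against Parental and at 5 of 9 for shCtrl against rABS in every alternative run. For shAPE1 against shCtrl the count was 5 to 7, with SERPINE2 deciding the lower value. Correlations of same-numbered deviations were -0.167 to 0.067, against -0.079 to 0.127 for libraries of different numbers. No strong shared signal of the replicate numbers was seen, but such correlations cannot show whether the numbers pair the libraries. With a replicate block 9266, 5485 and 5457 genes were called in the 3 comparisons, against 9454, 5784 and 5767 without it, and no call of a member changed. The log2 fold change of PLAUR in shAPE1 against shCtrl, -0.01, turned sign to 0.011 with RLE scaling, 0.032 with upper-quartile scaling, 0.012 with DESeq2, 0.0056 with 6 libraries, and 0.019 and 0.066 without shCtrl replicate 2 and shAPE1 replicate 3 (range -0.084 to 0.066 when a library was left out). With rABS as the control PLAT turned to 0.40 and TFPI to 0.069, and PLAUR was called at -0.36. In shCtrl against rABS, leaving out a library gave SERPINB2 values from -0.116 to 0.157 and PLAU values from -0.082 to 0.011, uncalled throughout. The causes were not tested. Depth limits SERPINB2 in Parental, at 5 to 8 counts per library, and SERPINE2.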
